A study of Mus musculus with 10 samples.

Results

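Splenic B cells labelled Ptger4-/- were compared directly with B cells labelled Ptger4+/+ after 24 h with both anti-IgM and prostaglandin E2 (PGE2). This comparison took 2 of the 10 arrays of the series, chosen by the conditions that the labels give for their channels. The Ptger4-/- RNA was in Cy3 on array 1 and in Cy5 on array 2, and the Ptger4+/+ RNA was in the other dye. Cells of both genotypes came from spleens of female mice aged 2 months, were purified with a magnetic B cell isolation kit and were cultured in IMDM medium. All of these cultures received F(ab')2 fragments of anti-IgM, which cross-link the B cell receptor, and PGE2, so no culture on these arrays was unstimulated. The arrays that bear on the same RNA were 2 of PGE2 with anti-IgM over anti-IgM alone at 24 h in Ptger4-/- cells and 2 of the same contrast in Ptger4+/+ cells. The other 4 arrays measured anti-IgM over medium at 2 h and entered only the estimates of spread and of the dye effect. The number of animals, the strain, any pooling and the way the Ptger4 allele was made are not given in the sources used here.

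Ptger4 encodes EP4, one of the cell-surface receptors for PGE2. EP4 couples to the stimulatory G protein, which activates adenylyl cyclase and raises cyclic AMP, and protein kinase A then phosphorylates the transcription factor CREB. Cyclic AMP is known to restrain the growth of activated lymphocytes, while antigen receptor signalling in B cells switches on NF-kB, Myc, metabolism and protein synthesis. The design asks how far the transcriptional response of anti-IgM-stimulated B cells to PGE2 differs when EP4 is missing.

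Each value is a log2 ratio, written as Ptger4-/- over Ptger4+/+, so a positive value is higher in the RNA labelled Ptger4-/-. The arrays gave ratios and no signal levels. Gene levels, markers at or near 0 and the identity of the cells therefore could not be checked, and fewer cells of a type could not be told apart from less RNA per cell. The log base and the ratio direction are not given in the sources used here; values were read as log2 of Cy5 over Cy3, and with the opposite direction every sign below would turn. Whether arrays of a dye pair hold separate extracts is not given either, so the p-values may measure technical spread only. There were 22533 features, of which 18300 were named genes, and an array pair limits the precision of each ratio.

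The Ptger4 probe was measured at 0.46 on array 1 and 0.52 on array 2, higher in the RNA labelled Ptger4-/- on both. The mean was 0.49 ± 0.07 (SE, n = 2 arrays, limma adjusted p = 0.00207). Here and below the SE is that of the fit to all 10 arrays, not the spread of the 2 arrays alone. The position of this probe relative to the deleted part of the gene is not given, and a probe outside it checks nothing, so this value does not establish the labels and goes against them if the probe lies within it. Ptger4-/- and Ptger4+/+ therefore name RNA as labelled throughout. Without array 2 the value was 0.39, with an adjusted p of 0.056. PGE2 over anti-IgM alone gave 0.04 for Ptger4 in Ptger4-/- cells (adjusted p = 0.933) and -0.59 in Ptger4+/+ cells (adjusted p = 0.000964).

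Across all features, the 2 genotype arrays had a correlation of 0.57 (Pearson) and 0.42 (Spearman), as a description of arrays that share the array design. The same sign was seen on both arrays for 13790 features (61.2%). The limma fit called 3593 features higher in the RNA labelled Ptger4-/- (15.9% of those tested) and 2476 lower (11%). Of the 6069 calls, 228 had opposite signs on the arrays. The split between directions depended on the fit and the threshold. Higher calls made up 59.2% of these calls, 77.5% without the dye coefficient (2130 higher and 619 lower) and 89.4% when the 2 genotype arrays were fitted alone without it (1379 higher and 164 lower). With the dye coefficient kept, they made up 71.2% at an adjusted p of 0.01 and 94.9% against a minimum fold of 1.5. Without array 1 the calls were 1867 higher and 551 lower (77.2% higher), and without array 2 they were 1763 higher and 748 lower (70.2% higher).

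Differences of at least 2-fold on both arrays were mostly in one direction, by a count that uses no fitted spread. There were 321 such features higher in the RNA labelled Ptger4-/- (1.42%) and 13 lower (0.0577%). At 1.5-fold the numbers were 914 (4.06%) and 68 (0.302%). With the ratios left as Cy5 over Cy3, 14 features were at least 2-fold apart with the same sign on both arrays, in either direction. These 14 follow the dye and not the genotype, and their number is close to that of the 13 lower features. The median of all features was -0.000906. The deposited ratios of all 10 arrays had medians near 0, so a shift shared by most features could not be seen in them.

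**Figure D1:**
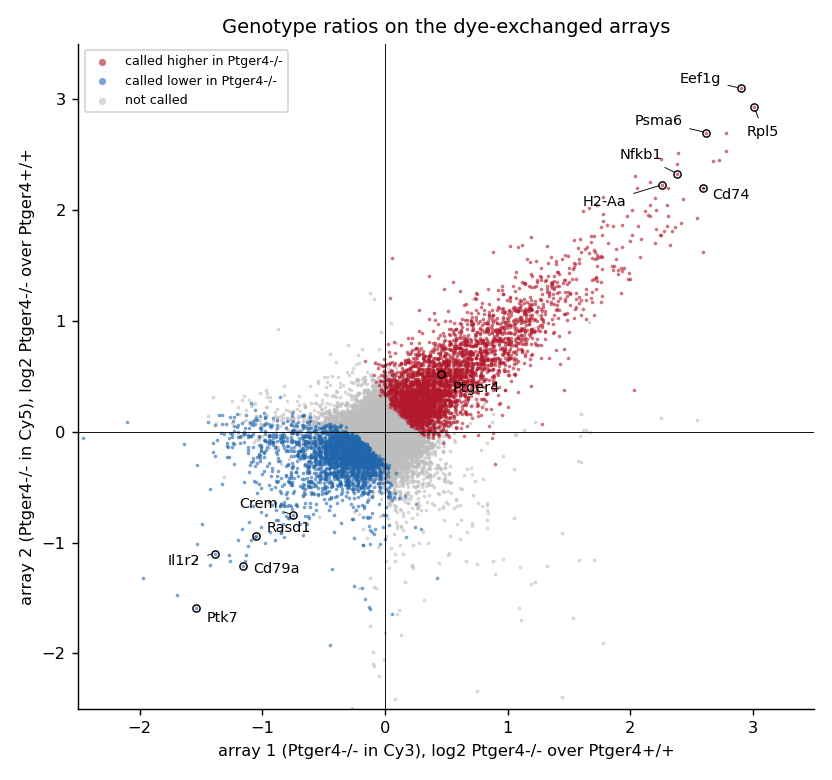
Each point is a feature, with its log2 ratio of Ptger4-/- over Ptger4+/+ on array 1 (x axis, Ptger4-/- in Cy3) against array 2 (y axis, Ptger4-/- in Cy5). Red and blue mark limma calls higher and lower in Ptger4-/-, grey marks the rest, and 21 features outside the axes are not drawn. Eef1g and Rpl5 lie at the upper right near 3 on both arrays, Ptk7 lies at the lower left, and many blue points are low on array 1 but near 0 on array 2.

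The genes that were highest in Ptger4-/- cells under anti-IgM and PGE2 included genes of translation, of the proteasome and of mitochondria, as well as immune genes. Eef1g, a subunit of translation elongation factor 1, was at 2.90 and 3.10 on the arrays, with a mean of 3.0 ± 0.06, or 8.02-fold (SE, n = 2, adjusted p = 3.09e-06). Rpl5, a protein of the large ribosomal subunit, was at 3.01 and 2.93, with a mean of 2.97 ± 0.10, or 7.83-fold (adjusted p = 8.27e-06). Both arrays therefore placed both genes near 8-fold. Slc25a3, the mitochondrial phosphate carrier, was at 2.78 and 2.70. Psma6, an alpha subunit of the 20S proteasome, was at 2.62 and 2.70. Bccip, a partner of BRCA2 and of the cell cycle inhibitor p21, was at 2.72 and 2.45. These 3 genes were thus more than 5-fold higher on every array.

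Next in order came Dnajc7, a co-chaperone of Hsp70 and Hsp90, at 2.67 and 2.44. Eif3m, a subunit of translation initiation factor 3, was at 2.39 and 2.52, and Atp5pb, a subunit of the ATP synthase stalk, was at 2.38 and 2.42. Nfkb1, which encodes the p105 and p50 forms of NF-kB, was at 2.38 and 2.33. Immune genes thus stood beside genes of basic metabolism. Cd74, the invariant chain that guides MHC class II molecules, was at 2.59 and 2.20, and H2-Aa, a class II alpha chain, was at 2.26 and 2.23. Bcl2a1c, of the anti-apoptotic A1 family, was at 2.20 and 2.11. The A1 genes are near-identical copies, so its probe may also read the others.

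The remaining 8 of the 20 highest genes had means of 2.00 to 2.26. They were Nop56 of the box C/D small nucleolar ribonucleoproteins, Psmd4, a ubiquitin receptor of the proteasome, Psma2, a further alpha subunit, and Brix1, needed for the large ribosomal subunit. With them were Clic1, an intracellular chloride channel protein, Rps3a1 of the small ribosomal subunit, Ngdn of the small subunit processome, and Cct7 of the cytosolic chaperonin. All 20 had adjusted p-values of 0.000178 or lower. Ribosomal protein genes have many processed pseudogenes, and a probe may read both.

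The same genes had clear ratios on the arrays of PGE2 in Ptger4+/+ cells and small ones in Ptger4-/- cells. Those arrays share labelled RNA conditions with the genotype arrays, so the values are set side by side and are no independent support. PGE2 over anti-IgM alone gave 0.09 for Eef1g in Ptger4-/- cells (adjusted p = 0.797) and -2.33 in Ptger4+/+ cells (adjusted p = 2.92e-05). For Rpl5 the values were 0.33 in Ptger4-/- cells and -2.01 in Ptger4+/+ cells. Over the 20 genes, PGE2 gave -0.17 to 0.33 in Ptger4-/- cells and -2.33 to -1.08 in Ptger4+/+ cells. These genes were picked by a ratio that shares the PGE2-treated conditions, so a gap between these ranges is partly built in. Of all features, PGE2 called 0.138% lower in Ptger4-/- cells and 17% lower in Ptger4+/+ cells.

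**Figure D2:**
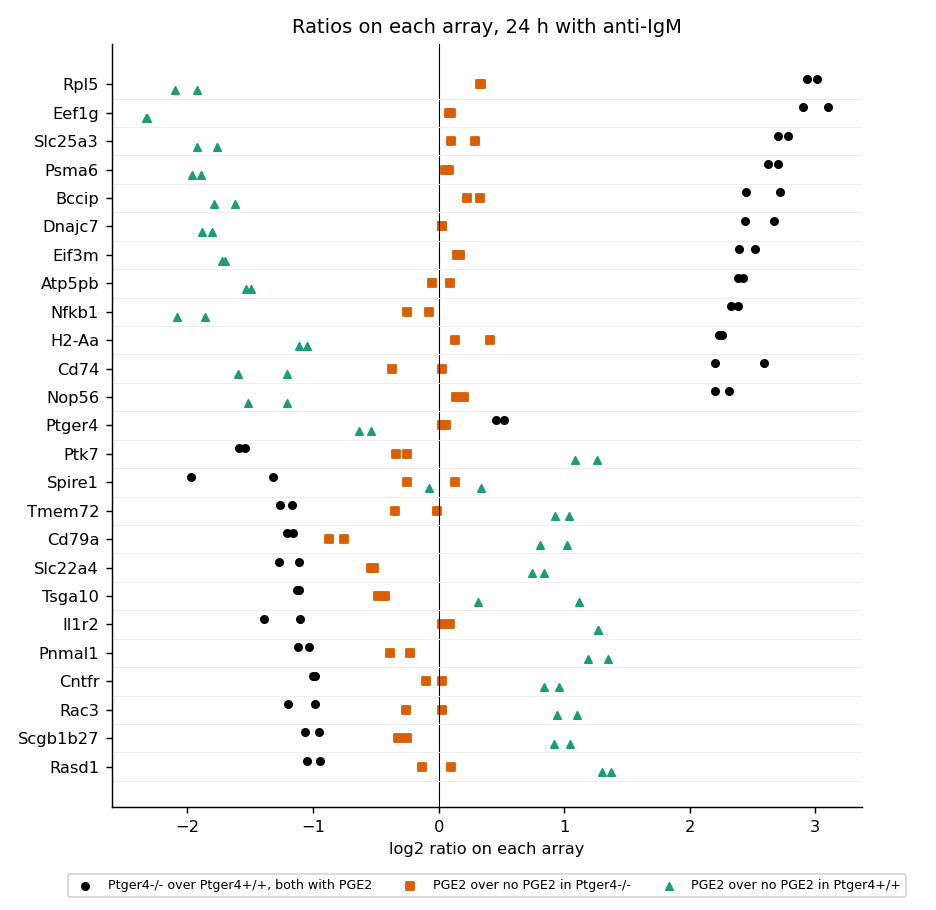
Log2 ratio on each array (x axis) for the 12 highest genes, Ptger4 and the 12 lowest genes of the genotype comparison (y axis), 2 arrays per comparison. Black circles are Ptger4-/- over Ptger4+/+, orange squares PGE2 over anti-IgM alone in Ptger4-/- cells, and green triangles the same in Ptger4+/+ cells. The highest genes lie right of 0 in black and left of 0 in green, with orange near 0, and Spire1 differs in that its green points straddle 0.

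Promoter sequence was available for 17 of the 20 highest genes, from 250 bases before the annotated start, and was searched for short motifs on both strands. CCGGAAG, the core bound by ETS family factors, was found in 8 of the 17. The stretches of 60 bases below show the motif in capitals in its context for 6 of these genes, each with 1 promoter in the table. They are RefSeq sequence of GRCm38.p6 and are written 5′ to 3′ on the strand of the gene.
Slc25a3 (chr10:91124109-91124168, minus strand): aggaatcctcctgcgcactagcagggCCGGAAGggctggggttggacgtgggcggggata
Bccip (chr7:133709273-133709332, plus strand): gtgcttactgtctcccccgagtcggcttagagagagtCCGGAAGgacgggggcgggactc
Eif3m (chr2:105017049-105017108, minus strand): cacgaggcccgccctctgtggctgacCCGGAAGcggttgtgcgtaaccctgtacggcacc
Psmd4 (chr3:95042706-95042765, minus strand): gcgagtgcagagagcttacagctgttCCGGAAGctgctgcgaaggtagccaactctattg
Brix1 (chr15:10485986-10486045, minus strand): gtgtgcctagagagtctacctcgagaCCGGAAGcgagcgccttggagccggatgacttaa
Rps3a1 (chr3:86142669-86142728, minus strand): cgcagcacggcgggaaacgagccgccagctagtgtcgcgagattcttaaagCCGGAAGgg

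Among genes called higher and at least 2-fold higher on both arrays, 255 of 294 had a promoter in the table and 75 of these (29.4%) held CCGGAAG. Of the genes called lower and at least 1.5-fold lower on both arrays, 44 of 55 had a promoter and 0 held it. The share over all measured genes with a promoter was 11.2% (1641 of 14685). The cyclic AMP response element TGACGTCA was in 3.53% of the higher genes, 2.27% of the lower genes and 2.39% of all. The GC box GGGCGG was in 63.9% of the higher genes, 40.9% of the lower genes and 50.5% of all. The E-box CACGTG was in 10.6% of the higher genes, 13.6% of the lower genes and 8.4% of all, and TATAAA was in 7.45% of the higher genes, 13.6% of the lower genes and 12.4% of all. None of these motifs contains another. These shares are descriptions of the windows, with no test, and the motifs were chosen with the results known. The sets were not matched for expression or base content, so the shares do not set the higher genes apart from other expressed genes.

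The genes lowest in Ptger4-/- cells were fewer, smaller in size and more mixed in function. Ptk7, a receptor-like pseudokinase of Wnt signalling, was at -1.54 and -1.59 on the arrays, with a mean of -1.57 ± 0.06 (SE, n = 2, adjusted p = 1.1e-05). Cd79a, the Ig-alpha signalling chain of the B cell receptor, was at -1.16 and -1.21, with a mean of -1.18 ± 0.06 (adjusted p = 3.33e-05). Il1r2, the decoy receptor for interleukin 1, was at -1.39 and -1.10, with a mean of -1.24 ± 0.07 (adjusted p = 2.82e-05). Each of these 3 was thus below 0.5 of its Ptger4+/+ level on both arrays. Slc22a4, an organic cation transporter, was at -1.27 and -1.11. Rasd1, a Ras-like protein induced by dexamethasone, was at -1.05 and -0.94.

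Satb1, a chromatin organiser of lymphocytes, was at -0.90 and -0.98, and Unc93b1, which carries nucleic acid-sensing Toll-like receptors to endosomes, was at -0.85 and -0.91. St8sia4, a polysialyltransferase, was at -0.89 and -0.80. The other lowest genes were Tmem72, Tsga10, Pnmal1, Cntfr, Rac3, Scgb1b27, Lrrc10, Asgr2, Tmsb10, Bcl2l12, Selenow and Spire1. Several of these have their best-known roles outside B cells, such as Asgr2, a liver receptor for asialoglycoproteins, and Cntfr, the receptor for ciliary neurotrophic factor. Tested against a minimum of 1.5-fold, Tsga10 (adjusted p = 0.103), Lrrc10 (adjusted p = 0.0926) and Bcl2l12 (adjusted p = 0.112) no longer passed.

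PGE2 over anti-IgM alone gave Ptk7 -0.29 in Ptger4-/- cells and 1.18 in Ptger4+/+ cells. For Il1r2 it gave 0.06 in Ptger4-/- cells and 1.27 in Ptger4+/+ cells. Most of the lowest genes had a value below 0 in Ptger4-/- cells, and Il1r2, Satb1 and St8sia4 were above 0. Cd79a was called lower there, at -0.81 (adjusted p = 0.0167), and higher in Ptger4+/+ cells, at 0.92 (adjusted p = 0.000145). Slc22a4 at -0.53 (adjusted p = 0.021) and Unc93b1 at -0.46 (adjusted p = 0.0201) were also called lower in Ptger4-/- cells. In Ptger4+/+ cells they were at 0.79 and 0.63. Selenow, a selenoprotein, had -0.76 in Ptger4-/- cells (adjusted p = 0.0167) and 0.64 in Ptger4+/+ cells (adjusted p = 0.000438). Spire1, an actin nucleator, was at -1.97 and -1.32 on the genotype arrays, with PGE2 values of -0.06 in Ptger4-/- cells and 0.13 in Ptger4+/+ cells that did not pass the test.

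Gene lists were described by their counts, beside the 15.9% of features called higher and the 11% called lower. Those shares are over all features, because dim probes could not be taken out. They differed widely between gene families. Of olfactory receptor genes 1.95% were called higher, against 66.7% of translation initiation factor genes and 72.2% of hnRNP genes. Whether a list above 15.9% differs from other genes that these cells express was not tested. The 42 lists, 8 of them of cell type markers, held 910 different measured genes, of which 356 were called higher and 73 lower. Without the dye coefficient these numbers were 250 and 33. Proteasome subunits had the highest share of calls among the lists of at least 15 measured genes.

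**Figure D3:**
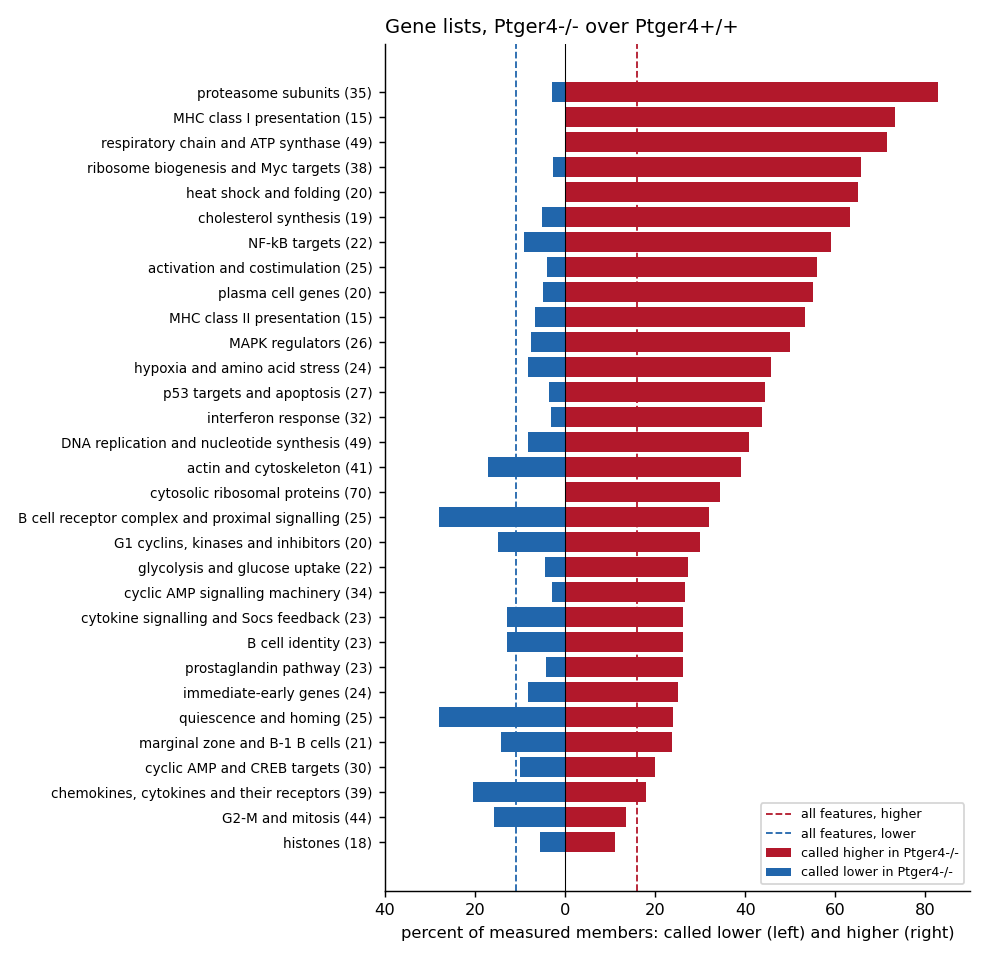
Percent of the measured members of each of 31 gene lists called lower (blue, to the left) and higher (red, to the right) in Ptger4-/- over Ptger4+/+, with the number of measured members in brackets. Dashed lines mark the share of all features, 15.9% higher and 11% lower. Proteasome, MHC class I and respiratory chain lists head the order, and histones, G2-M genes and chemokines lie at its foot.

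Proteasome genes were higher in Ptger4-/- cells almost throughout. Of 35 subunits and regulators, 29 were called higher and 1 lower, the median log2 ratio was 0.72, and 32 were positive on both arrays. Without the dye coefficient 26 were called higher and 1 lower, and fewer were called higher with either genotype array left out. Psma7, a 20S alpha subunit, was at 1.14 and 1.33 (mean 1.23 ± 0.04). Psme2, a subunit of the PA28 activator of immune cells, was at 1.87 and 1.5 (mean 1.68 ± 0.07). Psmd8, of the 19S lid, was at 1.49 and 1.59 (mean 1.54 ± 0.08). The exception was Psme3, the nuclear PA28 gamma activator, at -0.51 on both arrays (adjusted p = 0.00701). PGE2 called 0 of the 35 genes higher and 1 lower in Ptger4-/- cells, and 0 higher and 30 lower in Ptger4+/+ cells. Over all features, PGE2 called 33 in Ptger4-/- cells by limma (0.146%, of which 0.00888% higher and 0.138% lower), while 1880 had an unadjusted p under 0.05. In Ptger4+/+ cells the shares were 9.11% higher and 17% lower. The 2 arrays of PGE2 in Ptger4-/- cells had a correlation of -0.22 over features, against 0.38 for those in Ptger4+/+ cells.

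Antigen presentation genes were higher as well. Of 15 class I genes, 11 were called higher and 0 lower, with a median of 0.48. The class I heavy chain H2-D1 was at 1.19 and 0.93 (mean 1.06 ± 0.04), and H2-K1 was at 0.60 and 0.51 (mean 0.56 ± 0.05). Pdia3, the disulfide isomerase of the peptide-loading complex, was at 1.73 and 1.57 (mean 1.65 ± 0.06). Heavy chain genes resemble each other closely, so their probes may share signal. Without array 2 the class I count was 6 higher.

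Of 15 class II genes, 8 were called higher and 1 lower, with a median of 0.20. Beside Cd74 and H2-Aa, the peptide exchange factor chain H2-DMa was at 1.76 and 1.35 (mean 1.56 ± 0.07). Rfx5, a factor that binds class II promoters, was at -0.66 and -0.68 (mean -0.67 ± 0.07, adjusted p = 0.000456), while its partner Rfxap was at 0.58 and 0.46. The list thus held genes of both directions. Without the dye coefficient, or without one or the other genotype array, 5 class II genes were called higher and 1 lower.

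Genes that make ribosomes were higher in Ptger4-/- cells, and so were some of the ribosomal protein genes. Of 38 ribosome biogenesis genes and Myc targets, 25 were called higher and 1 lower, with a median of 0.42. Gnl3, the nucleolar GTPase nucleostemin, was at 2.14 and 1.96 (mean 2.05 ± 0.10). Odc1, the first enzyme of polyamine synthesis and a Myc target, was at 1.18 and 1.03 (mean 1.10 ± 0.07). Ebna1bp2, a nucleolar assembly factor, was the one called lower, at -0.41 and -0.28. Without array 2 the calls were 15 higher and 1 lower.

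Of 70 cytosolic ribosomal protein genes, 24 were called higher and 0 lower, with a median of 0.22. Rps3 was at 2.27 and 1.81 (mean 2.04 ± 0.06), Rpl26 was at 1.74 and 1.58 (mean 1.66 ± 0.05), and Rps7 was at 2.00 and 1.72 (mean 1.86 ± 0.07). The spread within this list was wide. Its members lay between -0.10 and 2.97, although their proteins are parts of the same particle. Without array 2, 16 members were called higher.

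Mitochondrial energy genes were higher with no member called lower. Of 49 respiratory chain and ATP synthase genes, 35 were called higher, with a median of 0.47, and 42 were positive on both arrays. Without the dye coefficient 28 were called higher, and the count also fell with either genotype array left out. Sdhb, the iron-sulfur subunit of succinate dehydrogenase, was at 1.54 and 1.73 (mean 1.63 ± 0.08), and Ndufs3, a complex I subunit, was at 1.36 and 1.30 (mean 1.33 ± 0.07). Glycolysis stood nearer the background, with 6 of 22 genes higher and 1 lower (median 0.04). In it, Ldha, lactate dehydrogenase A, was at 1.22 and 0.80 (mean 1.01 ± 0.05), and Gpi1, glucose phosphate isomerase, was at -0.37 and -0.45 (mean -0.41 ± 0.05). The glycolysis calls were 3 higher and 1 lower without the dye coefficient, and 2 higher and 1 lower without one or the other genotype array.

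**Figure D4:**
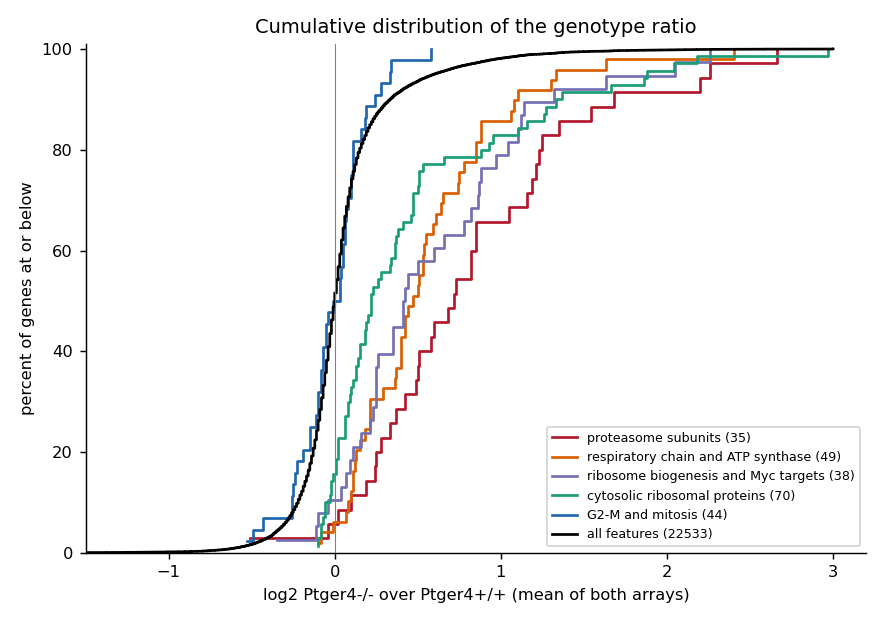
Cumulative percent of genes (y axis) at or below each log2 ratio of Ptger4-/- over Ptger4+/+, as the mean of both arrays (x axis), for 5 gene lists and for all features. The proteasome, respiratory chain and ribosome biogenesis curves lie to the right of the curve of all features, with medians of 0.72, 0.47 and 0.42, while the G2-M curve follows it, with a median of 0.01.

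Chaperone and sterol genes also had many higher calls. Of 20 heat shock and folding genes, 13 were called higher and 0 lower (median 0.31), among them the chaperonin subunit genes Cct3 at 1.97 and 1.95 and Cct5 at 1.72 and 1.39. Of 19 cholesterol synthesis genes, 12 were called higher and 1 lower (median 0.29). Ebp, a sterol isomerase, was at 1.51 and 1.14 (mean 1.33 ± 0.06), and Sqle, squalene epoxidase, was at 0.89 and 0.77 (mean 0.83 ± 0.10). Dhcr7, the last reductase of the pathway, was the one lower, at -0.10 and -0.34. Both lists were sensitive to the fit. Without the dye coefficient heat shock genes had 7 higher calls and cholesterol genes 7 higher and 0 lower. Heat shock genes had 8 higher calls without array 1 and 7 without array 2, and cholesterol genes had 5 without array 1 and 4 without array 2.

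NF-kB target and activation genes were higher in Ptger4-/- cells. Of 22 NF-kB targets, 13 were called higher and 2 lower, with a median of 0.29. Icam1, an adhesion molecule, was at 1.39 and 1.51 (mean 1.45 ± 0.05). Nfkbia, the inhibitor IkB-alpha that NF-kB itself induces, was at 1.90 and 1.42 (mean 1.66 ± 0.07), and Nfkbie, a related inhibitor, was at 1.72 and 1.40. The chemokine genes Ccl3 and Ccl4, both attractants of T cells, were higher too, Ccl3 at 1.07 and 1.21 and Ccl4 at 1.25 and 0.78. Bcl3, an atypical IkB protein, was at -0.50 and -0.51, and Relb, of the alternative pathway, was at -0.53 and -0.27, so NF-kB family genes stood on both sides.

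Of 25 activation and costimulation genes, 14 were called higher and 1 lower, with a median of 0.23. Batf, a transcription factor needed for class switching, was at 1.71 and 1.62 (mean 1.67 ± 0.06). The costimulatory receptor Cd40 was at 0.93 and 0.62 (mean 0.78 ± 0.05), and the transferrin receptor Tfrc was at 1.12 and 1.01 (mean 1.06 ± 0.08). Tnfrsf18, also known as GITR, was the one lower, at -0.16 and -0.17. Without array 1 or without array 2, 8 of the list were called higher. Of 26 MAPK regulators, 13 were higher and 2 lower, led by Dusp2, a nuclear MAPK phosphatase, at 1.88 and 1.65. Without the dye coefficient or without array 1 that list had 8 higher and 0 lower.

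Among 24 immediate-early genes, 6 were called higher and 2 lower, with a median of 0.07. Myc was at 0.58 and 0.49 (mean 0.53 ± 0.04), and Egr2, a zinc finger factor induced by the antigen receptor, was at 0.47 and 0.64 (mean 0.56 ± 0.06). Jund, an AP-1 subunit, was at -0.57 and -0.43 (mean -0.50 ± 0.06). Dusp2 aside, these values were under 1 in size. Of 20 plasma cell genes, 11 were higher and 1 lower (median 0.26). Mzb1, a chaperone of antibody secretion, was at 1.69 and 1.57 (mean 1.63 ± 0.07), Jchain, which joins IgM and IgA polymers, was at 1.13 and 1.07 (mean 1.10 ± 0.05), and Xbp1, the factor of the secretory programme, was at 0.58 and 0.77 (mean 0.68 ± 0.05).

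B cell receptor genes moved in both directions. Of 25 genes of the receptor complex and its proximal signalling, 8 were called higher and 7 lower, with a median of -0.02. The adaptor Pik3ap1, also known as BCAP, was at 1.38 and 1.41 (mean 1.39 ± 0.09), the adaptor Blnk was at 0.72 and 0.61 (mean 0.66 ± 0.05), and the co-receptor subunit Cd81 was at 0.87 and 0.65 (mean 0.76 ± 0.05). Lower beside Cd79a were its partner Cd79b at -0.25 and -0.39, the inhibitory receptors Cd22 at -0.90 and -0.64 and Fcgr2b at -0.72 and -0.26, and the phosphatase Ptpn6 at -0.47 and -0.50. Cd72, an inhibitory co-receptor, was at 1.09 and 1.30, so inhibitory receptors were on both sides too. The lower count depended on the arrays: without array 1 the list had 7 higher and 3 lower, and without array 2 it had 7 higher and 5 lower. Without the dye coefficient it had 7 higher and 4 lower.

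Of 23 B cell identity genes, 6 were called higher and 3 lower. Irf8 was at 1.11 and 1.18, Spi1 at 0.82 and 0.80 and Spib at 1.02 and 0.95, all 3 transcription factors of B cells that bind shared DNA elements. Of 25 quiescence and homing genes, 6 were higher and 7 lower. S1pr1, the receptor for exit from lymphoid organs, was at -0.82 and -0.63 (mean -0.72 ± 0.06), and the follicle receptor Cxcr5 was at -0.49 and -0.28. Gpr183, which positions activated B cells, was at 1.16 and 1.09 (mean 1.13 ± 0.09). The quiescence calls were 3 higher and 2 lower without array 1, 5 higher and 4 lower without array 2, and 4 higher and 3 lower without the dye coefficient.

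Of 23 genes of the prostaglandin pathway itself, 6 were higher (26.1%) and 1 lower (4.35%), with a median of 0.08. Tbxa2r, the thromboxane receptor, was at 1.76 and 1.59 (mean 1.68 ± 0.06, adjusted p = 1.01e-05). Ptgs2, the inducible cyclooxygenase, was at 1.16 and 0.92 (mean 1.04 ± 0.07, adjusted p = 8.04e-05). Ptger2, the EP2 receptor that also raises cyclic AMP, was at 0.08 and 0.33 (mean 0.20 ± 0.05, adjusted p = 0.0191), so most of its value came from array 2. The prostacyclin receptor gene Ptgir was at -0.31 and -0.27. Ptger1 at 0.00 ± 0.05 (adjusted p = 0.996) and Ptger3 at -0.09 ± 0.09 (adjusted p = 0.507), the other receptors for PGE2, did not pass the test. Without array 1, 4 of the 23 were higher and 0 lower, and without array 2, 3 were higher and 0 lower.

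The 30 cyclic AMP and CREB targets were near the background, with 6 higher and 3 lower and a median of 0.04. Crem, a target of CREB that encodes the repressor ICER, was at -0.75 on both arrays (SE 0.06, adjusted p = 0.000111). In Ptger4+/+ cells PGE2 called 4 of the 30 targets higher and 6 lower (median 0.01), against 9.11% and 17% of all features. In Ptger4-/- cells it called 0 higher and 0 lower (median -0.02). For Crem, PGE2 gave 0.10 in Ptger4-/- cells and 0.91 in Ptger4+/+ cells. Pde4b, a phosphodiesterase that degrades cyclic AMP and is induced by it, was at -0.34 on both arrays, with PGE2 values of 0.13 in Ptger4-/- cells and 0.68 in Ptger4+/+ cells. Nr4a1, an orphan nuclear receptor, was at -0.29 on both arrays. Higher members were Ptgs2, Gpr183, Gadd45b, Dusp1, Per1 and Il10. Antigen receptor signals are known to induce several of these, and the part of such signals here was not tested.

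Of 34 genes of the cyclic AMP signalling machinery, 9 were called higher and 1 lower. The inhibitory G protein subunits Gnai2, at 1.5 and 1.48 (mean 1.49 ± 0.05), and Gnai3, at 1.04 and 0.72 (mean 0.88 ± 0.07), led the list. The catalytic subunit Prkacb of protein kinase A was at 0.37 and 0.20, and its regulatory subunit Prkar2a was at 0.41 and 0.32. Gnas, the stimulatory subunit, was at -0.32 and did not pass the test. Without the dye coefficient 4 were higher and 1 lower, and without array 1 5 were higher and 1 lower.

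Cell cycle genes were read by phase. Of 49 genes of DNA replication and nucleotide synthesis, 20 were called higher and 4 lower, with a median of 0.17. Mcm4, a subunit of the replicative helicase, was at 1.27 and 1.40 (mean 1.34 ± 0.06), and Orc2, of the origin recognition complex, was at 0.86 and 0.95 (mean 0.90 ± 0.05). Of 44 G2-M genes, 6 were higher and 7 lower, with a median of 0.01. Birc5, survivin, was at 0.59 and 0.58, and Cenpa, the centromeric histone, was at -0.42 and -0.43. Among 20 G1 genes, 6 were higher and 3 lower. Cdk4 was at 1.55 and 1.11 (mean 1.33 ± 0.06) and the D cyclin Ccnd2 at 0.77 and 0.50, against the inhibitor Cdkn1b, p27, at -0.64 and -0.15. These counts depended on the fit, and without the dye coefficient they were 14 higher and 1 lower for replication, 3 and 0 for G2-M, and 2 and 1 for G1. Without array 1 they were 12 higher and 1 lower for replication, 3 and 0 for G2-M, and 2 and 0 for G1. Without array 2 they were 11 higher and 1 lower for replication, 1 and 1 for G2-M, and 4 and 2 for G1.

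Interferon response genes had 14 of 32 called higher and 1 lower, with a median of 0.16. Isg15, a ubiquitin-like modifier, was at 2.21 and 1.83 (mean 2.02 ± 0.06), and Bst2, tetherin, was at 1.42 on both arrays. The count was 7 higher without the dye coefficient, 8 without array 1 and 5 without array 2. Of 27 p53 target and apoptosis genes, 12 were higher and 1 lower, among them Mdm2, the ubiquitin ligase of p53, at 0.65 and 0.80, with 5 higher and 1 lower without the dye coefficient or without array 1, and 6 higher and 1 lower without array 2. Hypoxia and amino acid stress genes had 11 of 24 higher and 2 lower. Psph, an enzyme of serine synthesis, was at 0.99 and 1.03, while Ddit4, an inhibitor of mTORC1, was at -0.77 and -0.48.

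Actin and cytoskeleton genes had 16 of 41 higher and 7 lower. Cyfip2, of the WAVE complex, was at 1.07 and 0.94, and Cfl1, the actin-severing cofilin, was at -0.78 and -0.45. Pfn1, profilin, was at -0.46 and -0.39, with PGE2 values of -1.41 in Ptger4-/- cells and 0.10 in Ptger4+/+ cells. Without array 1 the actin calls were 9 higher and 4 lower, and without array 2 they were 7 higher and 6 lower. Chemokines, cytokines and their receptors had 7 of 39 higher and 8 lower. Beside Ccl3 and Il1r2 these included Tgfb1 at 0.63 and 1.02, Tnf at 0.65 and 0.79, and Il16 at -0.62 and -0.49. Cytokine signalling genes had 6 of 23 higher and 3 lower, with Jak2 at 1.34 and 1.24 and the interleukin 10 receptor chain Il10ra at -0.77 and -0.40. The marginal zone and B-1 list had 5 of 21 higher and 3 lower, and histones had 2 of 18 higher and 1 lower.

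Leaving out 1 genotype array moved further list counts by more than 1.5 times. Without array 2 there were 8 NF-kB targets called higher and 1 lower, 7 plasma cell genes higher and 0 lower, and 4 B cell identity genes higher and 1 lower. Without one or the other array, 4 immediate-early and 4 cytokine signalling genes were higher and 1 of each lower. Without array 1 there were 3 B cell identity genes higher and 1 lower, 6 chemokine and receptor genes higher and 4 lower, and 4 cyclic AMP and CREB targets higher and 1 lower. Of the hypoxia and amino acid stress genes, 7 were higher and 0 lower without array 1, and 7 higher and 1 lower without array 2.

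Marker lists of the cells that a spleen preparation could hold were read for the same ratio. Of 11 B cell markers, 1 was called higher and 4 lower: Cd72 was higher, and Cd79a, Cd22, Cd79b and Cd24a were lower, while Ms4a1, which encodes CD20, was at 0.10 ± 0.08 (adjusted p = 0.414). Without one or the other genotype array, 1 B cell marker was called higher and 2 lower. Of 10 T cell markers 1 was higher (Cd2 at 0.61 and 0.36) and 0 lower, and of 8 NK cell and 6 platelet markers 0 were called. Monocyte and macrophage markers had 1 of 10 higher (Cd68 at 0.30 and 0.09) and 2 lower, of which Adgre1, which encodes F4/80, was at -0.87 and -0.80. Of 6 neutrophil markers 1 was lower (Ltf), and of 7 dendritic cell markers 1 was lower (Siglech). Among 5 red cell markers Hbb-b1 was higher, at 0.40 and 0.41. The medians of these lists lay between -0.09 and 0.09, and the part of other cell types in the results was not tested. Of 4 sex-linked transcripts 0 were called. Of 7 genes that differ between inbred strains 3 were higher, among them Casp4 at 1.30 and 1.06, and Nnt was lower at -0.30 and -0.23; the part of strain background was not tested.

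As background, genes close to a targeted locus are inherited with it; whether the alleles near Ptger4 differed between these mice was not tested. Of 56 measured genes within 10 Mb, 9 were called higher (16.1%) and 5 lower (8.93%), against 15.9% and 11% of all features, and their median was 0.01. They included Brix1, and Tars, a threonyl-tRNA synthetase, at 1.47 and 1.37. Zfr, a zinc finger RNA-binding protein, was at 0.87 and 0.90, and its ratio with anti-IgM alone was 1.12 ± 0.10 (adjusted p = 0.0528). The shares near the gene were thus close to the background.

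The response to PGE2 was measured on 2 arrays per genotype, and its difference between genotypes was tested as a contrast in the fit to all 10 arrays. The contrast called 2102 features higher (9.33%) and 750 lower (3.33%) in Ptger4-/- than in Ptger4+/+ cells. Eef1g had a difference of 2.41 on the log2 scale (adjusted p = 0.000278), Psma6 of 1.99 (adjusted p = 0.000278) and Cd79a of -1.72 (adjusted p = 0.000346). A higher value of the contrast may be a smaller decrease in Ptger4-/- cells as well as a larger increase. PGE2 called 33 features in Ptger4-/- cells (0.146%) and 5888 in Ptger4+/+ cells (26.1%). It called 30 of 35 proteasome genes lower in Ptger4+/+ cells and 1 lower in Ptger4-/- cells, with 0 higher in either. By list, the contrast was higher for 23 of these 35 genes and lower for 1. The counts were 29 of 49 higher and 0 lower for replication genes, 18 of 38 and 1 for ribosome biogenesis, 18 of 49 and 0 for the respiratory chain, and 8 of 22 and 1 for NF-kB targets. The count of calls depended on the fit, at 1111 without the dye coefficient and 1096 without array 2 of PGE2 in Ptger4-/- cells. With only the 4 arrays of the PGE2 response and no dye coefficient, 149 were higher and 18 lower.

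No array compared the genotypes without PGE2. The ratio with anti-IgM alone was therefore taken through the chain of arrays, as the direct genotype ratio minus the PGE2 ratio in Ptger4-/- cells plus that in Ptger4+/+ cells. This chain called 1 feature higher (0.00444%) and 0 lower (0%) by limma, and 1747 had an unadjusted p under 0.05. Its typical SE was 0.0992, against 0.0573 for the direct ratio. The called gene was Cd74, at 1.16 ± 0.07 with anti-IgM alone (adjusted p = 0.0117) beside 2.39 ± 0.04 with PGE2. Its genotype arrays read 2.59 and 2.20, and these SEs are those of the fit with the dye coefficient. Without that coefficient the chain called 0 features. H2-Aa was at 0.89 ± 0.17 with anti-IgM alone (adjusted p = 0.322), Eef1g at 0.59 ± 0.11 (adjusted p = 0.268) and Ptk7 at -0.10 ± 0.11 (adjusted p = 0.833).

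The 20 highest genes had chain ratios of 0.26 to 1.16 and direct ratios of 2.00 to 3.0. Of them only Cd74 was called by the chain. The 20 lowest had chain ratios of -1.45 to 0.54 and direct ratios of -1.64 to -0.83. The chain holds the direct ratio by which these genes were ranked, so the selection itself pulls their chain ratios the same way. Spire1, at -1.45 ± 0.30 with anti-IgM alone, was the one gene whose size was about as large without PGE2, although its adjusted p was 0.334. The chain count was unstable to single arrays: without array 1 of PGE2 in Ptger4-/- cells it was 63 higher and 2 lower, and without array 2 of that pair 2 higher and 29 lower.

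**Figure D5:**
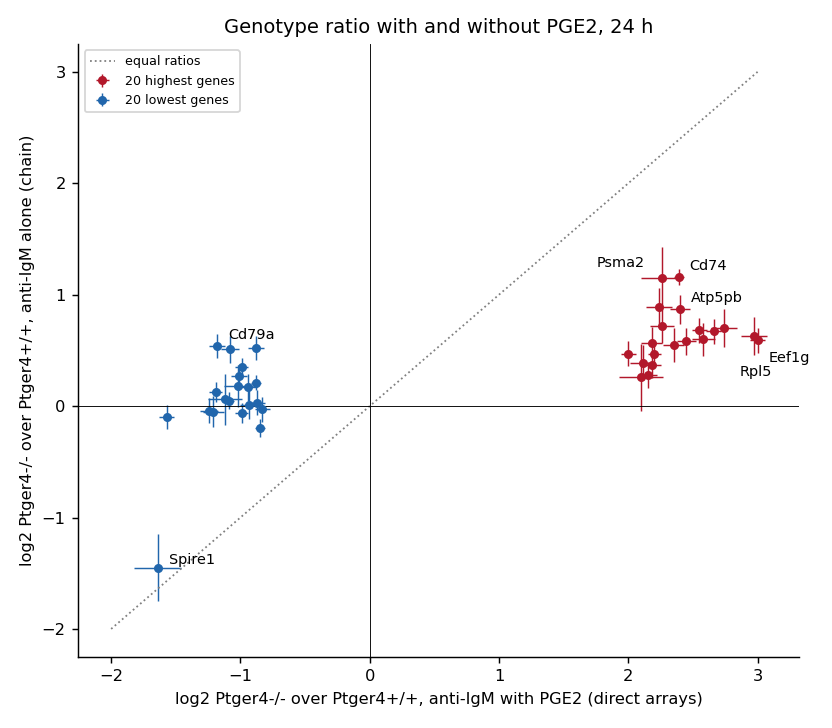
Log2 ratio of Ptger4-/- over Ptger4+/+ with anti-IgM and PGE2 from the direct arrays (x axis) against that with anti-IgM alone from the chain of arrays (y axis), for the 20 highest (red) and 20 lowest (blue) genes, with bars of 1 SE. The 2 axes share the direct arrays. Red points lie between 0.26 and 1.16 on the y axis, well below the dotted line of equal ratios, and Spire1 alone lies near that line.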

How the data were processed

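The authors deposited 1 log ratio per probe for each of 10 two-colour arrays, read here as log2 of Cy5 over Cy3 (neither base nor direction is stated; base 10 is not possible, since the lowest value, -9.03, exceeds the 4.82 that a 16-bit scanner allows). Per the labels' protocols, RNA was amplified with T7 polymerase and labelled with Cy3 or Cy5, with dyes exchanged between the arrays of a pair. Which normalization and background correction the authors used is not stated there. Without intensities no filter on dim probes was possible.

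Ratios were turned to Ptger4-/- over Ptger4+/+ or PGE2 over anti-IgM alone. Of 25344 probes, 21111 had 1 gene symbol in the platform annotation (3978 updated through RefSeq, 64 kept as given) and 4233 had none. Probes of a gene were averaged into 22533 features (2001 genes had more than 1 probe), and gene names may be old. limma 3.58.1 in R 4.3.3 was fitted to all 10 arrays, with 5 comparison coefficients and a dye coefficient per feature, and p-values were adjusted by Benjamini-Hochberg over all features at 0.05. The fit was tested on simulated data with independent normal noise, which could not check the calls that rest on 1 array. Errors are SE of the fit.

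Named genes were Ptger4, the 20 highest and 20 lowest called genes ranked by the smaller of the 2 array ratios, up to 6 called members of a list per direction, called genes within 10 Mb of Ptger4 and examples of features that rest on 1 array. Ptger1, Ptger3, Gnas and Ms4a1 were named outside this rule after their values were seen. The members, lists and motifs were chosen with earlier results of these data known. Alternatives covered the dye term, normalization, single probes, the arrays in the fit, thresholds, the variance prior and each array left out.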

Additional observations from a re-analysis of the deposited data

Results flagged for a closer look

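The PGE2 response differed between genotypes by the limma contrast, with 2102 features higher and 750 lower in Ptger4-/- than in Ptger4+/+ cells. A higher value may be a smaller decrease in Ptger4-/- cells. Among the highest genes of the genotype comparison, the differences on the log2 scale were 2.34 for Rpl5, 2.41 for Eef1g, 2.03 for Slc25a3, 1.99 for Psma6, 1.98 for Bccip and 1.87 for Dnajc7. Among the lowest genes they were -1.47 for Ptk7, -1.17 for Tmem72, -1.72 for Cd79a, -1.32 for Slc22a4 and -1.17 for Tsga10. Ptger4 itself had a difference of 0.63 (adjusted p = 0.00647). The arrays behind these values share labelled RNA conditions with the genotype arrays.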

How the results depend on the processing

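No paired analysis was possible because the labels give no replicate numbers shared between groups. The genotype calls (6069) were 2749 without the dye coefficient, 3748 after quantile normalization, 1543 with only the arrays compared, 510 against a minimum fold of 1.5, 3284 at an adjusted p of 0.01, and 2418 to 6195 with an array left out. Without both arrays of PGE2 in Ptger4-/- cells they were 5233, and 5841 had the same sign on both arrays, both chosen after seeing the data. Calls of the difference of PGE2 responses (2852) were in the same order 1111, 1726, 167, 123, 1272 and 1096 to 2831, and 1763 after scaling. Chain calls (1) were 0 without the dye coefficient, with only the arrays compared, at a minimum fold and at the stricter p, 3 after scaling, 6 with a robust prior and 0 to 65 with an array left out. Features 2-fold apart (334) were 731 as natural logs and 982 at 1.5-fold. List members called (429) were 283 without the dye coefficient and 251 to 263 without a genotype array. Single genes were checked only for Ptger4 and the highest and lowest called genes, 41 in all. Of their 820 alternative values, 815 kept their direction and their side of the threshold, 5 no longer passed it and 0 reversed. Apart from Ptger4, these genes were picked as called and with large ratios on both arrays, so this stability was largely set by the choice. Leaving out an array of another comparison changed p-values but not these ratios. The other named genes were not checked one by one. The cause of the shifts between settings was not tested.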

Other observations

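Families chosen by symbol, with the results known, extended the lists. Of 77 mitochondrial ribosomal protein genes 53 were called higher and 1 lower in Ptger4-/- cells (median 0.37), and of 51 translation initiation factor genes 34 were higher and 0 lower (median 0.34). Aminoacyl-tRNA synthetases had 12 of 18 higher and 2 lower (median 0.46), and hnRNPs, which bind nascent RNA, had 13 of 18 higher and 1 lower (median 0.48). Olfactory receptors, which B cells are not known to need, had 15 of 771 higher (1.95%) and 70 lower (9.08%), against 15.9% and 11% of all features (median -0.02). Vomeronasal receptors had 1 of 121 higher and 9 lower (7.44%), and keratin genes 1 of 78 higher and 8 lower (10.3%). In Ptger4+/+ cells PGE2 called 102 of the 771 olfactory receptors higher and 1 lower, against 9.11% and 17% of all features. A lower call therefore does not show that these cells use the gene.

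A set of 196 features rested on 1 array, with at least 1 on one array and under 0.25 of that on the other. Of these, 6 were called higher and 103 lower, and 90 of the 103 were larger in size on array 1. Boll, at -1.35 and 0.15 (adjusted p = 0.0114), and Slc36a1os, at -1.33 and 0.15 (adjusted p = 0.0108), rest on array 1 and were called lower. The PGE2 arrays gave Boll -0.91 and 0.37 in Ptger4-/- cells and 0.59 and -0.91 in Ptger4+/+ cells. Each of these Boll values was below 0 where the first-named RNA was in Cy3 and above 0 where it was in Cy5. The part of the dye was not tested. Examples that rest on array 2 follow. Ppp2r5b, a phosphatase subunit, was at -0.21 and -7.91 (adjusted p = 0.0601). Prkag1, a subunit of the AMP-activated kinase, was at 0.58 and 4.58 (adjusted p = 0.0282).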
